A study of Rattus norvegicus with 2 samples.

Results

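The data describe where Creb3l1 sat along rat chromosome 1, the longest rat chromosome, after 72 h without water. Of the 2063 peaks in the ChIP-seq list, all 331 (16.04%) whose chromosome was given as 1 in the build rn6 were kept. The other 19 autosomes held 1708 peaks. Tissue came from male Sprague Dawley rats, 9 pooled, whose supraoptic and paraventricular nuclei were punched out to enrich for magnocellular neurones (MCNs), so other cells of the punch also contributed chromatin. All animals were water deprived. One library was made with a Creb3l1 antibody and 1 from input chromatin without antibody, each from 1 ng of DNA after 20 min in 1.6% formaldehyde, and there was no group with free access to water. Every value below belongs to 1 ChIP library, without replicate error, and the input entered only as the control of the peak caller.

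Creb3l1 is a basic leucine zipper transcription factor held in the membrane of the endoplasmic reticulum (ER). When the ER is under load the protein is carried to the Golgi, cut by proteases, and its released part enters the nucleus and binds DNA. MCNs make the hormones vasopressin and oxytocin and release them from the posterior pituitary, and dehydration raises the demand on their secretory pathway. A ChIP-seq peak marks a stretch where DNA pulled down with the antibody exceeded the input, and its summit is the position of highest pileup.

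Peaks were packed into few parts of the chromosome. Summits were counted in 57 bins of 5 Mb, with a mean of 5.81 peaks per bin (SD 7.91 over bins) and a median of 3. Bins with at least 2 times the mean, that is 12 or more peaks, were called dense, and bins with 1 to 5 were called sparse. The 7 dense bins held 165 peaks, or 49.8% (95% Wilson interval 44.5 to 55.2%) of the chromosome. The 33 sparse bins together held 77 peaks (23.3%), 11 bins between held 89, and 6 bins had none. These counts chose the bins and are a description.

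**Figure D1:**
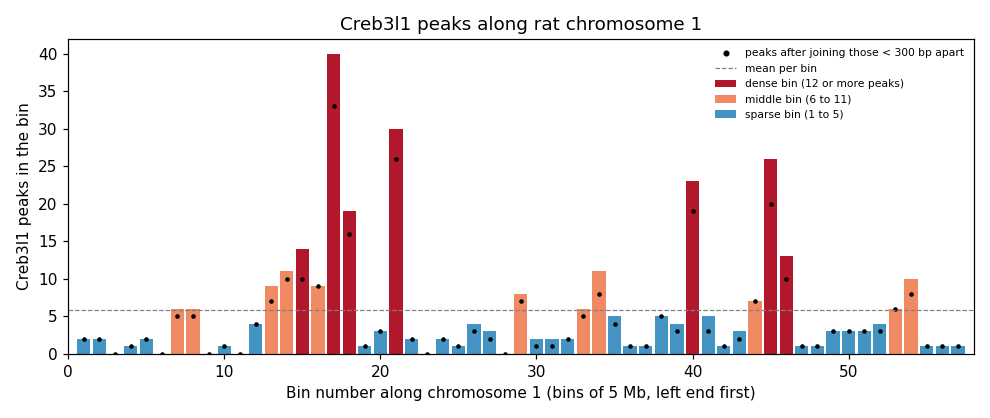
Bars give the number of Creb3l1 peaks in each 5 Mb bin of chromosome 1, coloured by kind of bin, black points the number after joining peaks less than 300 bp apart, and the dashed line the mean of 5.81 peaks per bin. The fullest bin, number 17, holds 40 peaks, and 6 bins are empty.

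The largest dense area lay in the first part of the chromosome. From 60 to 90 Mb, 6 bins in a row exceeded the mean, with 9, 11, 14, 9, 40 and 19 peaks. These 30 Mb held 102 peaks, 30.8% of the total. The edge was steep, since the next bin, from 90 to 95 Mb, had 1 peak. Within the fullest bin, from 80 to 85 Mb, the successive Mb held 11, 12, 11, 1 and 5 peaks, so that 40 peaks fell into 19 of its 50 windows of 100 kb. Joining peaks less than 300 bp apart left 33 separate regions there.

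A second, tighter area began after a stretch with few peaks. The bin from 100 to 105 Mb held 30 peaks and all of them lay in its first 2 Mb, 11 in the first and 19 in the second, from a summit at 100359796 to one at 101884333. The bins on either side had 3 and 2 peaks. Placed freely rather than on fixed limits, the fullest 1 Mb of the chromosome held 22 summits, from 100845261 to 101803255. In the other autosomes the fullest 1 Mb held 6 to 18 summits, with a median of 10 and the highest on chromosome 7. These have fewer peaks in all. As a share of the peaks of its chromosome, the fullest 1 Mb held 6.65% on chromosome 1. Elsewhere it held from 5.33% on chromosome 10 to 25% on chromosome 16.

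Further dense areas lay in the distal part. The bin from 195 to 200 Mb had 23 peaks between neighbours with 4 and 5, and 22 of them fell in its last 3 Mb, with 5, 9 and 8 per Mb. From 220 to 230 Mb there were 39 peaks, 26 in the first bin and 13 in the next, at 3.90 per Mb (95% exact Poisson interval 2.77 to 5.33). There the first Mb of each bin was the fullest, with 12 and 8 peaks, and the following bin had 1. The densities of the areas from 80 to 90 Mb and from 100 to 105 Mb were 5.90 (4.49 to 7.61) and 6 (4.05 to 8.57) per Mb, and their intervals overlapped with 4.60 (2.92 to 6.90) from 195 to 200 Mb. The order of these areas was thus not resolved by counting.

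Long gaps lay before the first dense area, between dense areas and after the last. A gap of 5 Mb or more cannot fit within a 5 Mb bin, so by definition none could lie inside a dense bin. Of the 330 distances between neighbouring summits, 14 (4.24%, 2.54 to 6.99%) were 5 Mb or more. These covered 103 Mb, 36.7% of the span from the first summit to the last. On the other autosomes 127 of 1689 distances (7.52%, 6.36 to 8.88%) were that long, and they covered 52.7% of the span. The longest there was 35.1 Mb, on chromosome 15, so long gaps did not set chromosome 1 apart. The 3 longest were 9.55, 9.52 and 9.34 Mb. A lone peak of 410 bp, chr1:47942275-47942684, with 29 ChIP fragments at its summit and a fold enrichment of 7.90, stood between the 9.55 Mb gap and the 9.34 Mb gap. To its left the nearest peak was chr1:38597482-38597822 with 22 fragments, and to its right chr1:57489718-57489772 with 21. The second gap ran from chr1:107373980-107374095 to chr1:116896927-116896988, with 29 and 21 fragments. The next were 8.33 Mb, from chr1:8145245-8145389 (18 fragments) to chr1:16471924-16472040 (16), and 7.90 Mb, from chr1:205706379-205706436 (20) to chr1:213605631-213605685 (23). A gap in a list of called peaks shows that no summit passed the threshold there, and whether those stretches could be mapped by reads was not tested. Among peaks with q-values at or under 1e-05 the longest gap was 18.7 Mb, and with a fold of at least 5 it was 15.8 Mb.

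Chromosome 1 was then set beside the other autosomes. Its density up to the last summit was 1.18 peaks per Mb, 1.58 times that of the other autosomes together (95% exact interval 1.40 to 1.78). The ratio was 1.64 (1.44 to 1.87) when peaks less than 300 bp apart were joined. Both intervals treat peaks as independent counts and are too narrow for peaks that lie unevenly. Single other autosomes ranged from 0.443 per Mb on chromosome 2 to 1.51 on chromosome 10, with 1.15 on chromosome 7. Only chromosomes 10 and 12 were denser than chromosome 1. A bin without a peak was found in 6 of 57 cases on chromosome 1 (10.5%, 95% Wilson interval 4.91 to 21.1%) and in 114 of 469 elsewhere (24.3%, 20.6 to 28.4%). These intervals overlapped slightly, no interval of their difference was computed, and 16 of the 19 other autosomes had a larger share of empty bins. The mean count also differed, at 5.81 peaks per bin on chromosome 1 and 3.64 elsewhere, and its part in the share of empty bins was not tested. With 40 peaks chromosome 1 had the fullest bin, the highest elsewhere being 28 on chromosome 7. It also had the most peaks, 331 against 42 to 169 on the others. Placed freely, its fullest 5 Mb held 12.99% of its peaks, and the fullest 5 Mb of the others held 13.1 to 50%. The variance of the counts divided by their mean, which grows with the unevenness of the bins, was 10.8 on chromosome 1 and 1.97 to 12.4 on the others, with only chromosome 7 higher. Chromosomes differ in their mean count, to which this ratio is tied. The 10% of bins with most peaks held 45.9% of the peaks of chromosome 1, and 19.2 to 47.4% elsewhere.

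**Figure D2:**
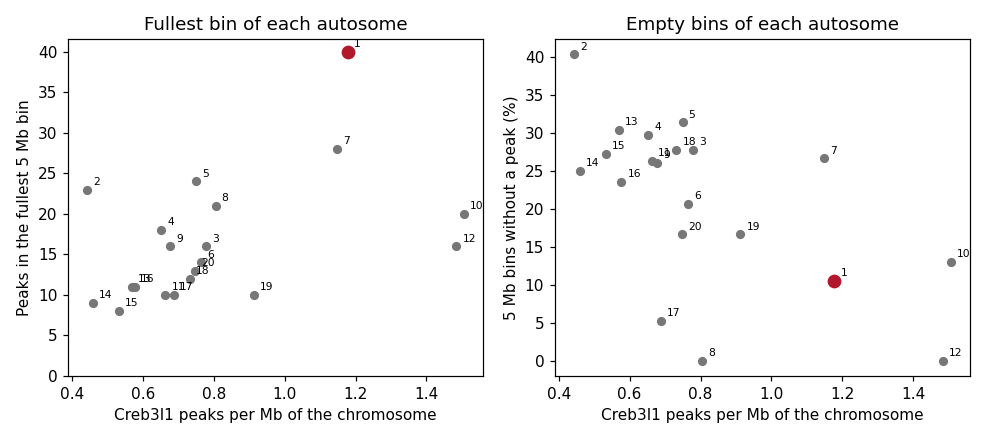
Each point is an autosome, labelled by its number, with chromosome 1 in red; the x axis gives peaks per Mb up to the last summit, and the y axes the peaks in the fullest 5 Mb bin and the share of bins without a peak. Chromosome 1 has the fullest bin, 40 peaks, while its share of empty bins, 10.5%, lies in the lower part of the range.

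The step from one summit to the next differed at intermediate range. Distances from 10 to 100 kb made up 79 of 330 on chromosome 1 (23.9%, 19.7 to 28.8%) and 246 of 1689 on the other autosomes (14.6%, 12.96 to 16.3%). The difference was 9.37 percentage points (95% interval 4.74 to 14.5). It was 10.4 points (4.99 to 16.3) with close peaks joined and 10.3 points (4.54 to 16.9) among peaks with q-values at or under 1e-05. Only distances between neighbours in the same dense bin were also compared, and there the shares were 34.8% (27.8 to 42.5%) and 23.6% (20.1 to 27.6%). Single autosomes ranged from 3.85% on chromosome 14 to 25.3% on chromosome 7, so chromosome 1 was not alone at its level. This range of distance was singled out after the values were seen. Distances between neighbours shorten as density rises, and chromosome 1 held 1.18 peaks per Mb against 0.746 on the other autosomes. Its 7 dense bins held 165 peaks and the 32 elsewhere held 519, so density was not equal there either. The part of density in the difference was not tested. At under 1 kb the shares were 18.8% (14.9 to 23.4%) and 21.8% (19.9 to 23.8%), and their intervals overlapped.

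**Figure D3:**
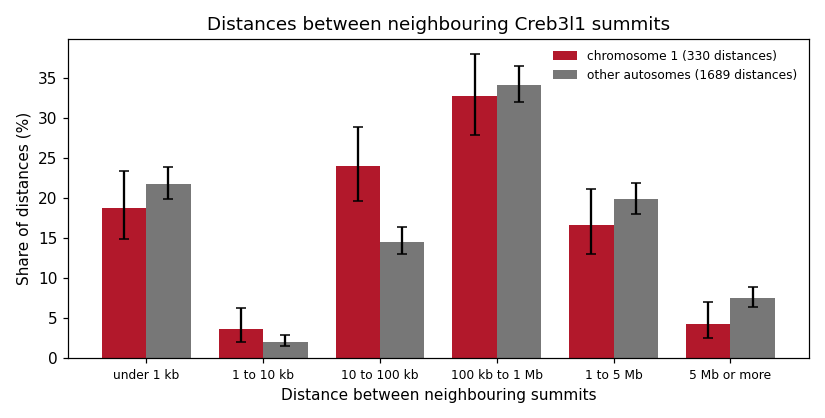
Bars give the share of distances between neighbouring Creb3l1 summits in 6 classes, for chromosome 1 (330 distances) and the other autosomes (1689), and error bars are 95% Wilson intervals. The class from 10 to 100 kb differs most, 23.9% against 14.6%.

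The peaks of chromosome 1 were close to those elsewhere in width, depth and fold. Width ran from 55 to 2531 bp with a median of 116 bp (95% order-statistic interval 107 to 126), against 112 bp (108 to 116) on the other autosomes. The median was 22 fragments on both, with intervals of 21 to 23 and 21 to 22, and single summits on chromosome 1 had 13 to 54. Median fold was 5.76 (5.55 to 5.96) and 5.55 (5.55 to 5.69). Of the 331 peaks, 204 (61.6%, 56.3 to 66.7%) had a q-value at or under 1e-05, where the whole list gave 59.7%, and 321 had one at or under 0.01 (97.0%, 94.5 to 98.4%), where it gave 96.8%. A fold of at least 5 was found for 230 (69.5%), with 66.9% in the whole list, and a width of 200 bp or more for 87 (26.3%, 21.8 to 31.3%), with 22.8% in the whole list. A neighbour less than 300 bp away was present for 99 peaks (29.9%, 25.2 to 35.0%), with 33.9% in the whole list. All 5 shares lay within counting error of the whole list, of which these peaks are a part.

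Peaks tended to be wider in dense than in sparse bins of chromosome 1, by an amount that depended on how bins were drawn. The median width was 134 bp (113 to 165) in dense bins, 111 bp (98 to 151) in the bins between and 103 bp (94 to 117) in sparse bins. The intervals of dense and sparse bins overlapped between 113 and 117 bp. The upper quartile was 242 bp in dense and 144 bp in sparse bins. Peaks of 200 bp or more made up 52 of 165 in dense bins (31.5%, 24.9 to 39.0%) and 13 of 77 in sparse bins (16.9%, 10.1 to 26.8%), a difference of 14.6 percentage points (2.74 to 24.7). The shortest width of the list, 55 bp, was found for 4 peaks in dense bins (2.42%) and 7 in sparse bins (9.09%), whereas in the other autosomes it was more frequent in dense bins, at 6.74% against 4.14%, a difference of 2.60 points (0.0313 to 5.39). The share of wide peaks in the dense bins stayed between 29.6% and 33.3% when each of them was left out in turn. It depended more on where bins began: with bins shifted by 2.5 Mb the difference was 5.78 points (−6.22 to 15.9), with medians of 123 and 112 bp. With dense bins taken as the top 25% and sparse ones as the lower 50% by count it was 11.7 points (−2.58 to 21.9), and with wide peaks counted from 300 bp it was 8.57 points (−0.950 to 16.2), so that the interval included 0 in all of these. It also did with bins of 10 Mb (10.8 points, −0.699 to 20.8) and among peaks with q-values at or under 1e-05 (10.1 points, −7.74 to 25.8).

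No difference in depth was resolved. The median was 22 fragments in dense (21 to 24), middle (20 to 23) and sparse bins (20 to 24), and 19.4%, 19.1% and 18.2% of their peaks had 30 or more. The difference of the last share between dense and sparse bins was 1.21 points with an interval of −10.2 to 10.9, so a moderate difference either way was not resolved at these numbers. Median fold was 5.73 (5.37 to 6.13) in dense and 5.76 (5.46 to 6.20) in sparse bins. Medians of single dense areas spread more than those of the 3 kinds of bin, but rested on fewer peaks. The median was 26 fragments (22 to 32) from 195 to 200 Mb and 22 (20 to 23) from 80 to 90 Mb. From 70 to 75 Mb, where 14 peaks were counted, it was 20 (17 to 30). These intervals overlapped, so no difference in depth between these areas was resolved. The median width of the 5 dense areas ran from 103.5 bp, from 100 to 105 Mb, to 176 bp, from 70 to 75 Mb. With 30 and 14 peaks their intervals, 76 to 167 bp and 105 to 219 bp, overlapped.

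**Figure D4:**
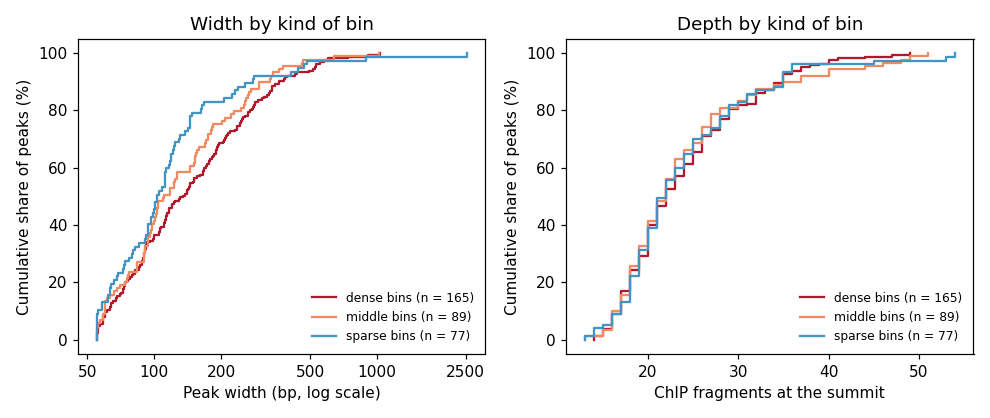
Lines give the cumulative share of chromosome 1 peaks by width (left, log axis in bp) and by ChIP fragments at the summit (right), for dense (165 peaks), middle (89) and sparse (77) bins. The width line of dense bins lies right of that of sparse bins between 100 and 300 bp, with medians of 134 and 103 bp, and the lines cross among the few widest peaks, up to 1032 bp in dense and 2531 bp in sparse bins, while the 3 depth lines run together at a median of 22.

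Close neighbours and background were counted in the same bins. A neighbour less than 300 bp away was present for 57 peaks in dense bins (34.5%, 27.7 to 42.1%) and for 20 in sparse bins (26.0%, 17.5 to 36.7%), a difference of 8.57 points with an interval of −4.18 to 19.9. With a distance of 1 kb it was 15.8 points (2.859 to 27.3). A close neighbour adds to the count by which the bins were chosen, so both differences are a description only. The caller takes as background the highest of a genome-wide mean and local input levels, and a local level was the highest for 66.1% (58.5 to 72.8%) of peaks in dense and 77.9% (67.5 to 85.7%) in sparse bins, with 67.7% in the whole list, and the difference of −11.9 points had an interval of −22.7 to 0.611. The median background was 2.31 fragments (2.15 to 2.48) in dense and 2.26 (2.16 to 2.64) in sparse bins, and these intervals overlapped. The part of background in the width difference was not tested. In the other autosomes, split at the same counts, wide peaks made up 25.05% (21.5 to 29.0%) in 32 dense bins and 19.8% (17.0 to 23.0%) in 257 sparse bins, a difference of 5.23 points (0.476 to 10.0). That interval overlapped with the one for chromosome 1, and median widths were 116 and 110 bp. Peaks with 30 or more fragments were more frequent there in dense bins, by 5.93 points (1.43 to 10.5).

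The strongest peaks were not limited to dense bins. The 10 of highest fold on the chromosome lay 6 in dense, 4 in middle and none in sparse bins. These kinds of bin held 49.8%, 26.9% and 23.3% of all its peaks. The highest, chr1:265809527-265809990, was enriched 14.5-fold (10.8 to 19.1, from the exact Poisson limits of its 49 fragments) in a bin of 10 peaks, and chr1:31967779-31967923, with 48 fragments, was enriched 14.3-fold (10.6 to 18.8) in a bin of 6. Next came chr1:100980169-100980686, inside the tight area near 101 Mb, enriched 13.1-fold (9.60 to 17.5) with 44 fragments. The same area held the fourth, chr1:101010893-101011155, only 30.6 kb further on, enriched 11.5-fold (8.24 to 15.5) with 39 fragments. The fifth, chr1:224997902-224998329, was enriched 11.3-fold (8.19 to 15.3) with 40 fragments. The other 5 were chr1:78417547-78417879, chr1:79930875-79931049, chr1:198639351-198639599, chr1:221439920-221440659 and chr1:221042107-221042397. Their folds lay between 10.96 and 11.1, with 37 to 40 fragments. Depth did not rank them, since the interval of 66 chromosome 1 peaks reached the lower limit of the highest.

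A summit of 40 or more fragments was found for 16 peaks, of which 6 were in dense, 7 in middle and 3 in sparse bins, the last holding 23.3% of all peaks of the chromosome. The tallest of all on the chromosome, chr1:180721414-180721518, had 54 fragments and was the only peak of its bin. Its background was 19 input fragments, so that its fold of 2.43 (1.84 to 3.16) was the lowest on any autosome. A similar peak, chr1:197982611-197982677, stood at 49 fragments against 13 from the input, enriched 3.16-fold (2.36 to 4.15). These were 2 of 331 peaks with a background of 10 or more, where the other autosomes had 0 of 1708, for which 3 counts would be a share of 0.176%. That limit was chosen after the values were seen, and lower ones did not set chromosome 1 apart: a background of 7 or more was found for 4 peaks (1.21%) against 9 elsewhere (0.527%), of 5 or more for 4.53% against 6.44%, and of 3 or more for 35.3% against 38.4%. A background of 7 was also used for chr1:198409012-198409101, with 26 fragments, and for the first peak of the chromosome, chr1:174862-174973, with 30 fragments and a fold of 3.43. The last peak, chr1:281101860-281101928, had 19 fragments and a fold of 5.46.

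Among the 5 widest peaks, 2 lay in sparse bins that they shared with only 1 close neighbour. The widest, chr1:148440829-148443359, spanned 2531 bp with 53 fragments at its summit, and its bin held just 1 further peak, less than 300 bp away. The fifth, chr1:154169639-154170532, spanned 894 bp with 45 fragments and likewise had 1 close neighbour and no other peak within its bin. Both summits had input above the genome-wide mean, of 4 and 3 fragments. The others were chr1:80630000-80631031 (1032 bp, 32 fragments), chr1:219143790-219144812 (1023 bp, 31 fragments) and chr1:199194297-199195211 (915 bp, 36 fragments), all at the genome-wide background of 2.04.

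Close groups of 3 or more peaks were few. Joining peaks less than 300 bp apart gave 278 regions, 232 with a single peak, 40 pairs, 5 groups of 3 and 1 of 4. On the other autosomes 54 of 1378 regions were groups of 3 or more. Of the 6 larger groups of chromosome 1, 4 lay in dense and 2 in middle bins, which held 134 and 77 of its 278 regions. The group of 4, chr1:82108189-82109360, extended over 1172 bp with 29, 26, 20 and 21 fragments at its successive summits. It belonged to the window of 100 kb with most peaks, from 82100001 to 82200000, which held 8. A further peak of that window, chr1:82136654-82137184, had 47 fragments and a fold of 10.6 with a width of 531 bp, the tallest summit of the dense bin from 80 to 85 Mb. The groups of 3 were chr1:64719592-64720227 (16, 26 and 16 fragments), chr1:72902236-72903029 (19, 21 and 14), chr1:167158364-167158894 (21, 20 and 17), chr1:220243242-220243873 (32, 15 and 18) and chr1:221041780-221042397 (24, 18 and 40). In 2 of these 5 the middle summit was the tallest, and in the others an outer one was.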

How the data were processed

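Creb3l1 ChIP-seq was performed on hypothalamic tissue of 9 pooled water-deprived rats, with 1 input library as control. Per the labels, reads were mapped with Bowtie and peaks were called with MACS2 version 2.1.0. Per the study's methods the mapping was to rn6. The caller's settings, listed with the study's peak table, state that the larger library was scaled to the smaller. The deposited list holds for each peak its position, a score that was not used further, the authors' fold enrichment (a ratio of ChIP pileup to local background, each with 1 added), and −log10 values of p and q, all as the authors deposited them.

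ChIP fragments and background at each summit were recovered by solving the fold and p-value formulae of MACS together. With a scale of 0.882 all 2063 peaks (100%) gave a whole number of fragments, the −log10 p-value being matched within 0.001, and no peak had a second solution. The recovery was tested on simulated data and returned 100% of 1934 simulated peaks. Positions count from 1, while bins were cut from position 0 on the 0-based summit. Calculations used Python 3.11.15 with numpy 2.4.6, scipy 1.17.1 and pandas 2.3.3.

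Shares carry 95% Wilson intervals (for a count of 0, the share that 3 counts would make), their differences Newcombe intervals, counts and densities exact Poisson intervals, ratios of densities exact conditional (Clopper-Pearson) intervals, and medians order-statistic intervals. They cover counting error only, treat peaks as independent, and are not adjusted for the number of comparisons. Peaks of 1 library are not replicates, so no p-value was computed. Named peaks were the 10 of highest fold, the 5 widest, groups of at least 3 peaks less than 300 bp apart, those flanking the 5 largest gaps, and the first and last. The chromosome, the bins and these rules were chosen with earlier results of these data known. Peaks named for a background of 7 or more, for 40 or more fragments or for lying in 1 window of 100 kb were chosen after their values were seen. Reference tables of another rat assembly were not used, so no genes, motifs or sequences are given.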

Additional observations from a re-analysis of the deposited data

How the results depend on the processing

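Among peaks with q-values at or under 1e-05 the number of chromosome 1 peaks was 204 in place of 331. The same threshold moved the medians and shares of dense bins to 176.5 bp, 26 fragments, 41.8% of peaks at 200 bp or more and 16.3% with a close neighbour, and those of sparse bins to 131 bp, 31.7% and 14.6%. The longest gap became 18.7 Mb, or 15.8 Mb with a fold of at least 5. Bins without a peak numbered 0% at 10 Mb and 39.0% at 2 Mb, as follows from their size. The share of peaks in dense bins was 68.9% with 2 Mb bins, 68.0% with shifted bins, 76.7% when dense meant the top 25% of bins, and 43.0% without the fullest bin, an alternative chosen after seeing the data. The 10% of bins with most peaks held 39.3% at 10 Mb and 54.4% at 2 Mb. Wide peaks counted from 300 bp made up 16.4% in dense and 7.79% in sparse bins. Setting the background to its genome-wide mean throughout, the median fold was 6.71 in both kinds of bin, and with a pseudocount of 0 it was 7.78 in both. With the top 25% and lower 50% of bins the share of close neighbours in sparse bins was 17.4%, and the difference in median fold between dense and sparse bins turned from −0.036 to 0.154. Where no construction shows it, the cause was not tested. Of 129 alternative values 103 stayed within the interval or factor of the reported value or kept the direction of a difference. The wider peaks of dense bins kept their direction in all 12 alternatives for median width and for the share of wide peaks. Direction alone was counted, in the same peaks, and differences of medians had no interval. For the share, the interval included 0 in every alternative except that without the fullest bin (15.9 points, 3.44 to 26.9). Leaving out a replicate could not be done with a single ChIP library. No paired analysis was possible because the ChIP library and the input were 1 sample each. Depth limits single peaks, as 22 fragments or so at a summit leave wide limits on a fold.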

Other observations

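Some values of chromosome 1 belong to no comparison above. Bins above the mean of 5.81 peaks formed 4 further runs that held no dense bin. These ran from 30 to 40 Mb with 12 peaks, from 140 to 145 Mb with 8, from 160 to 170 Mb with 17 and from 260 to 270 Mb with 16. The first had 6 peaks in each of its 2 bins, close to the mean. The run from 260 to 270 Mb held 3 of the 16 chromosome 1 summits with 40 or more fragments, including chr1:265809527-265809990 and chr1:265298848-265298937, the latter with 46 fragments in a peak of 90 bp. In contrast, the highest fold between 85 and 90 Mb was 6.89, although 19 peaks were counted there. The tallest of their summits had 36 fragments. The window from 89000001 to 89100000 alone held 6 of these peaks, with 15 to 20 fragments each. These runs and peaks were chosen after their values were seen.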
